A study of Mus musculus with 2 samples.

Results

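The 10 genes described here belong to the BCL2 family, which decides at the mitochondrion whether a cell lives or dies, and were measured in adult mouse spleen. They are the survival genes Mcl1, Bcl2l1, Bcl2 and Bcl2a1b, the effectors Bax and Bak1, and the BH3-only genes Bcl2l11, Bbc3, Bid and Pmaip1. The genes were chosen by symbol, with symbols matched to the Ensembl identifiers of the gene tables, and make up 10 of the 43346 genes listed. All 10 were found, and each stood above 1 TPM (a level scaled by transcript length and library depth) in both libraries.

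The study sequenced poly(A) RNA, depleted of ribosomal RNA, of whole spleen from C57BL/6J mice aged 8 weeks, drawn from littermates of both sexes. The 2 samples are biological replicates 1 and 2 of 1 group and are called library 1 and library 2. No genetic change, treatment or second group is named in the labels, so no conditions were compared. The labels give both samples the same donor entry and different biosample entries, and do not say which or how many animals went into each. The spread between the libraries may therefore be biological or technical. Whole spleen mixes B cells, T cells, macrophages, neutrophils and red cell precursors, and in such bulk RNA fewer cells of a type and less RNA per cell cannot be told apart.

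Proteins of this family share short stretches known as BCL2 homology domains. The survival proteins bind and restrain the effectors BAX and BAK, which otherwise form pores in the outer mitochondrial membrane and release cytochrome c to start the caspase cascade. BH3-only proteins sense stress or loss of growth signals and either occupy the survival proteins or activate the effectors directly. In lymphoid tissue, these proteins set how long naive lymphocytes live and remove cells that recognize self.

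Gene positions are those of GRCm38, by GENCODE M21. The survival genes lie at chr3:95658788-95663176, plus strand (Mcl1), chr2:152780668-152831728, minus strand (Bcl2l1), chr1:106538178-106714274, minus strand (Bcl2) and chr9:89199209-89207827, plus strand (Bcl2a1b). The effectors lie at chr7:45461697-45466898, minus strand (Bax) and chr17:27019810-27029009, minus strand (Bak1). Of the BH3-only genes, Bcl2l11 lies at chr2:128126038-128162547, plus strand, Bbc3 at chr7:16308393-16318205, plus strand and Bid at chr6:120891930-120916853, minus strand, with Pmaip1 on chromosome 18. Bcl2l1 and Bcl2l11 share chromosome 2, and Bax and Bbc3 share chromosome 7, and the other 6 genes are each on a chromosome of their own.

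Gene counts totalled 49686344 in library 1 and 51393345 in library 2. Markers of B cells, T cells, red pulp macrophages, neutrophils, red cells and platelets in the lists used were all detected in both libraries, as were those of spleen identity, led by the transcription factor Tcf21 (101 and 87.7 TPM). The libraries differed in composition. All 8 red cell markers, led by Hba-a2, were higher in library 2, and their summed level was 194617 TPM in library 1 and 304900 TPM in library 2. Of 8 red pulp macrophage markers, led by Hmox1, 7 were higher in library 2 (summed 801 and 1033 TPM). By the count test described below, 24.1% of all genes tested were higher in library 2, a share not matched for counts. Pancreatic acinar markers, led by Ctrb1, summed to 77278 and 60769 TPM, so transcripts of another organ were present in both. Since TPM is a share of the whole, the 4 haemoglobin genes, at 19.4% and 30.3% of TPM, enter the total to which every other level is scaled, and the median TPM ratio of detected genes, library 2 over library 1, was 0.903. Differences between libraries are therefore given from counts scaled by the trimmed mean of M values (TMM), and levels in TPM.

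Mcl1 dominated the family by TPM. This gene, which encodes a short-lived survival protein that most haematopoietic cells depend on, stood at 253 TPM in library 1 and 154 in library 2 (203 ± 69.8, SD, n = 2). It ranked above 96.7% of the 11572 protein-coding genes detected in both libraries, whose median was 11.6 TPM. Mcl1 alone held 81.2% and 68.0% of the summed TPM of the 4 survival genes, and 46.3% and 37.7% of that of all 10 genes. Most of its TPM, 72.0% and 68.9%, was assigned to a shorter transcript with 33.7% and 30.8% of its counts. These shares and the rank thus depend on how reads were divided between the transcripts of Mcl1.

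The other survival genes were lower. Bcl2l1, which encodes BCL-XL, stood at 32.6 TPM in library 1 and 51.6 in library 2 (42.1 ± 13.4, SD, n = 2). Bcl2, the founding member of the family, stood at 14.4 and 9.13 TPM (11.8 ± 3.72, SD, n = 2), close to the median detected gene. Bcl2a1b, 1 of several copies of the gene for the NF-kB-induced protein A1, stood at 11.5 and 11.7 TPM (11.6 ± 0.113, SD, n = 2). Mcl1 exceeded Bcl2 by 17.6-fold and 16.9-fold, a ratio of TPM that varied little. By scaled counts the 2 genes were less alike, Mcl1 at 0.705-fold in library 2 and Bcl2 at 0.835-fold. The TPM ratio of Mcl1 to Bcl2l1 was 7.75 in library 1 and 2.99 in library 2, and these genes differed in opposite directions.

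Of the effectors, Bax stood at 97.5 TPM in library 1 and 78.0 in library 2 (87.8 ± 13.8, SD, n = 2), above 91.2% of detected protein-coding genes. Bak1 stood at 51.6 and 41.7 TPM (46.7 ± 6.98, SD, n = 2). Both were lower in library 2, and the ratio of Bax to Bak1 was nearly the same, at 1.89 and 1.87.

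Among the BH3-only genes, Bbc3, which encodes the p53 target PUMA, was the most variable, at 40.0 TPM in library 1 and 19.4 in library 2 (29.7 ± 14.5, SD, n = 2). Bid, whose protein links death receptors to mitochondria once cut by caspase-8, stood at 21.6 and 21.2 TPM (21.4 ± 0.269, SD, n = 2). Bcl2l11, which encodes BIM, a main killer of lymphocytes deprived of cytokines, stood at 19.8 and 19.4 TPM (19.6 ± 0.283, SD, n = 2). The lowest of the 10 was Pmaip1, which encodes NOXA, a BH3-only protein that binds MCL1. Its level was 3.55 and 2.36 TPM (2.96 ± 0.841, SD, n = 2), above only 16.8% of detected protein-coding genes.

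Ordered by mean level, the genes ran Mcl1, Bax, Bak1, Bcl2l1, Bbc3, Bid, Bcl2l11, Bcl2, Bcl2a1b and Pmaip1. Mcl1 came first, Bax second and Pmaip1 last in each library. From Bak1 to Bid, the range of each gene over the 2 libraries met that of its neighbour, so the order of neighbours is not resolved. The same held for Bcl2 and Bcl2a1b. The range of Bak1 still lay above those of Bbc3 and Bid, and that of Bcl2l1 above that of Bid. The ranges of the other neighbouring pairs did not meet, although with 2 libraries a range is a weak measure of spread. Pairs that are not neighbours can meet too. The range of Bbc3 took in that of Bcl2l11, and Bbc3 stood just below Bcl2l11 in library 2.

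**Figure D1:**
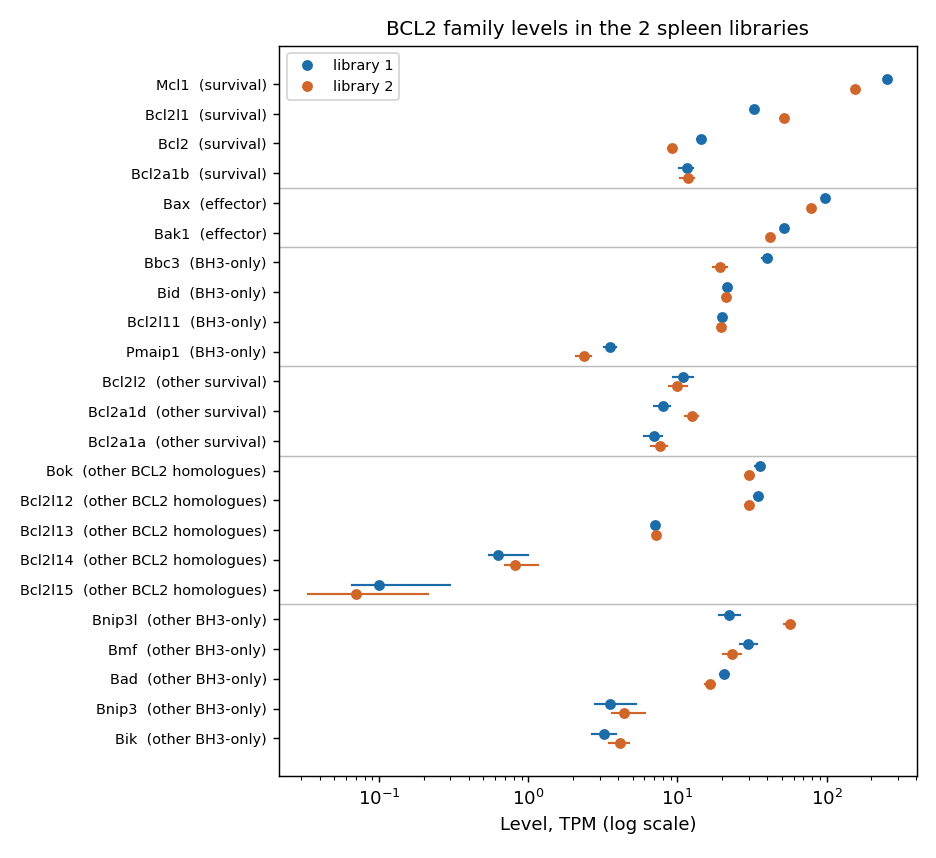
Levels of the 10 genes and of 13 relatives in TPM on a log scale, grouped by role, with a point for each library and lines for the interval of the level in the deposited tables. Mcl1 lies furthest right, at 253 and 154 TPM, and Pmaip1 furthest left among the 10, at 3.55 and 2.36 TPM; Bcl2l1 has its library 2 point to the right of its library 1 point, unlike Mcl1, Bcl2, Bax, Bak1 and Bbc3.

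Summed by role, the survival genes reached 311 TPM in library 1 and 226 TPM in library 2 (269 ± 60.01, SD, n = 2). The effectors reached 149 and 120 TPM (134 ± 20.8, SD, n = 2), and the BH3-only genes 84.9 and 62.4 TPM (73.7 ± 15.9, SD, n = 2). All 3 sums were lower in library 2, where haemoglobin took the larger share. With TPM rescaled to leave out the 4 haemoglobin genes, an alternative added after the data were seen, Mcl1 stood at 313 and 221 TPM and Bcl2l1 at 40.5 and 74.1 TPM. On that scale Bid (26.8 and 30.4 TPM), Bcl2l11 (24.6 and 27.9 TPM) and Bcl2a1b (14.3 and 16.8 TPM) were higher in library 2, whereas their deposited TPM were nearly equal. The rescaling raises every level, and by more in library 2, and by scaled counts Bid and Bcl2a1b were not called. Like Mcl1, Bax (121 and 112 TPM), Bak1 (64.0 and 59.9 TPM) and Bbc3 (49.6 and 27.9 TPM) stayed lower in library 2. So did Bcl2 (17.8 and 13.1 TPM) and Pmaip1 (4.40 and 3.39 TPM). Ratios within a library are free of the haemoglobin share. Survival transcripts outnumbered effector transcripts by 2.09 to 1 in library 1 and by 1.89 to 1 in library 2 (1.99 ± 0.139, SD, n = 2). Without Mcl1 the order turned, and the ratio was 0.393 and 0.605. The ratio of survival to BH3-only transcripts was 3.67 and 3.63, and that of BH3-only to effector transcripts 0.569 and 0.521. Ratios that include the survival genes rest on Mcl1 TPM, most of it from a shorter transcript described below. That transcript held 72.0% and 68.9% of Mcl1 TPM but only 33.7% and 30.8% of Mcl1 counts. All of these are ratios of RNA and say nothing of protein.

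The counts of each gene were then set against each other to ask whether the 2 libraries differed beyond counting error, with an exact two-sided binomial test adjusted by Benjamini-Hochberg over all 17547 genes with 10 or more counts. The test compares these 2 libraries and has no replicate check. Of the 10 genes, 8 were called, against 50.7% of all genes tested and 67.5% of the 9722 genes with at least as many counts as the least counted of the 10. Higher in library 2 were 2, Bcl2l1 and Bcl2l11, beside 24.1% of all genes, and lower were 6, Mcl1, Bcl2, Bax, Bak1, Bbc3 and Pmaip1, beside 26.6% of all genes. These shares by direction were not matched for counts. Bid and Bcl2a1b were not called. By scaled counts, none of the 10 differed more than 2-fold, as 5.73% of all genes did. By TPM, Bbc3 did, with a ratio of 0.486. The median log2 ratio of the 10 was -0.16, beside 0.0049 for all genes tested.

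Bcl2l1 showed the largest difference of the 10 by scaled counts. It had 3450 counts in library 1 and 5938 in library 2, a 1.70-fold higher scaled level in library 2 (95% counting interval 1.63 to 1.77, adjusted p = 2.60e-138, exact binomial test). Only 4.30% of the 12500 genes detected in both libraries had a larger absolute log2 ratio. BCL-XL is known as the main survival protein of maturing red cells, and the red cell markers moved the same way, 8 of 8 higher in library 2 with a median log2 ratio of 0.86, beside 0.76 for Bcl2l1. The red pulp macrophage markers moved so too, with a median of 0.76. Their part in the result was not tested.

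The largest differences in the other direction were those of Bbc3 and Mcl1. Bbc3 had 1393 and 969 counts, a 0.687-fold level in library 2 (0.632 to 0.746, adjusted p = 1.33e-18, exact binomial test). Mcl1 had 16793 and 12001 counts, a 0.705-fold level (0.689 to 0.722, adjusted p = 5.44e-188, exact binomial test). Pmaip1, with 416 and 305 counts, was 0.724-fold (0.622 to 0.841, adjusted p = 6.40e-05, exact binomial test). All 3 lay inside the middle 90% of log2 ratios of genes detected in both libraries, which ran from -0.56 to 0.54, while Bcl2l1 lay outside it. Both Mcl1 and Pmaip1, binding partners as proteins, thus stood lower in library 2, as did Bbc3.

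Smaller differences were called for Bcl2, Bax, Bak1 and Bcl2l11. Bcl2 had 3162 and 2674 counts, a 0.835-fold level in library 2 (0.793 to 0.879, adjusted p = 4.01e-11, exact binomial test). The effectors moved nearly together, Bax at 0.886-fold (0.842 to 0.933) and Bak1 at 0.899-fold (0.863 to 0.936). Bcl2l11, with 3933 and 4368 counts, was 1.10-fold (1.05 to 1.14, adjusted p = 0.00010, exact binomial test), although its TPM was nearly equal. For Bax, Bak1 and Bcl2l11, most detected genes had a larger absolute log2 ratio, namely 55.1%, 59.8% and 64.9%. Bid had 2009 and 2099 counts, a ratio of 1.03 with a counting interval from 0.970 to 1.10, the ratio nearest to 1 of the 10 by scaled counts.

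**Figure D2:**
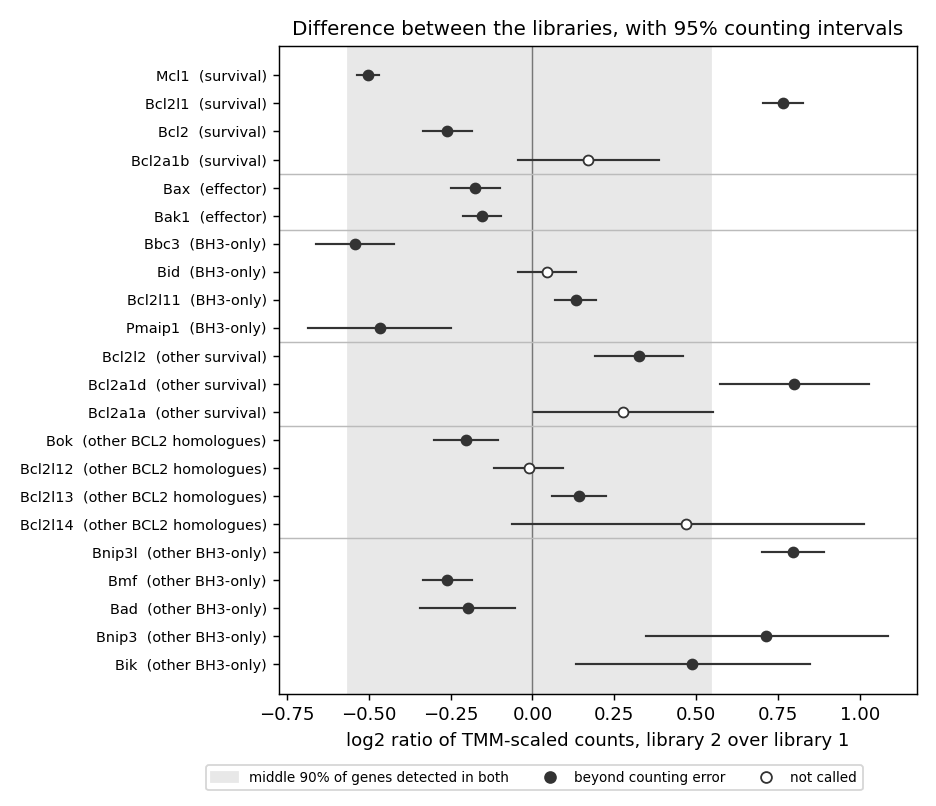
Log2 ratio of TMM-scaled counts, library 2 over library 1, for the 10 genes and 12 relatives, with 95% counting intervals; filled points passed the exact binomial test and the grey band holds the middle 90% of detected genes. Bcl2l1, at 0.76, is the only one of the 10 whose point lies outside the band, while Mcl1 (-0.50), Bbc3 (-0.54) and Pmaip1 (-0.46) lie near its lower edge.

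Several of these genes make more than 1 protein, and the deposited transcript tables give the percent of the gene's TPM that each annotated transcript holds. The 10 genes had 36 transcripts, of which 35 were matched by identifier to names in GENCODE M21. Because a short transcript needs few reads for a high TPM, the share of the gene's expected counts is given beside the share of TPM.

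Mcl1 was split between 2 annotated transcripts that differ inside the first exon. The full-length transcript (ENSMUST00000037947) encodes the whole protein of 331 codons. The shorter transcript (ENSMUST00000178686) encodes 285 codons and lacks 138 bases, that is 46 codons in frame, beginning 52 bases into the coding sequence. The stretch lies at chr3:95658909-95659046 of GRCm38, plus strand, and is shown because it is the coding difference between the 2. The full-length transcript also holds untranslated sequence that the shorter one lacks. Capitals mark the bases that the shorter transcript lacks, and the line covers chr3:95658879-95659076.
Mcl1 full length: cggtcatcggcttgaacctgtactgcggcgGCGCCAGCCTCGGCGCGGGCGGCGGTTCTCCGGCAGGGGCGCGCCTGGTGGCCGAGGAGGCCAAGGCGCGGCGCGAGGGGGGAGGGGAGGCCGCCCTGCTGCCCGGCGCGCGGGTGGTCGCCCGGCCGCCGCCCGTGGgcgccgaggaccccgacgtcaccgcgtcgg
The capital stretch begins with gc and ends with gg, not with the usual gt and ag of an intron. A run of 6 bases is repeated at its ends, and 85.5% of its bases are G or C.

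By TPM, the shorter transcript was the leading one, with 72.0% of the gene in library 1 and 68.9% in library 2 (182 and 106 TPM), and the full-length transcript held 28.0% and 31.1% (70.7 and 47.9 TPM). By counts the order turned, and the full-length transcript held 66.3% and 69.2%. The shorter transcript has 858 bases and the full-length one 3485 in the deposited tables, so fewer reads gave the shorter entry the higher level. Both transcripts keep the second exon, and a form without it, known as the short, death-promoting MCL1, was not analysed here. The split was alike in both libraries, the leading share differing by 3.10 points.

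Transcripts for the 3 known BIM proteins of Bcl2l11 were present in unequal amounts. The extra-long form of 196 codons, the long form of 140 and the short form of 110 share the BH3 domain, and the long and short forms are held to be the stronger killers. The coding stretch that tells them apart is shown because the BIM forms are named by it. It spans chr2:128128737-128147104 of GRCm38, plus strand, joined across introns. Capitals mark the 168 bases that the long form lacks, and the short form lacks these and the next 90.
Bim extra long: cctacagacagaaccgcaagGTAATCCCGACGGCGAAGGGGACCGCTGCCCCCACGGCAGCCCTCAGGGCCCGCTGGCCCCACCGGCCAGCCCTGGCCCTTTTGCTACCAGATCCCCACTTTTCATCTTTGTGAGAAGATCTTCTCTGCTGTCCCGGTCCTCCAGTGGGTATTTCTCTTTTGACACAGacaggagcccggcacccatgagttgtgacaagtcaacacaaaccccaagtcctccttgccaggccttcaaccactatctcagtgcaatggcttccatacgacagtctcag
The 168 bases begin with gt and end with ag, the letters usual at the ends of an intron.

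The extra-long form held 76.8% of Bcl2l11 TPM in library 1 and 80.0% in library 2 (15.2 and 15.5 TPM). The long form held 7.84% and 8.19%. The short form held 6.45% and 2.95%, on only 42.9 and 14.4 expected counts over its 2 transcripts. Transcripts without the BH3 exon held 8.92% and 8.91%. By counts the extra-long form held 89.9% and 90.8%, the long form 6.33% and 6.42%, and the short form 1.09% and 0.329%. The extra-long form thus led by either measure in both libraries, while the level of the short form rests on few reads.

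Among the listed transcripts of Bcl2l1, those for the long survival form held most of the level. The 2 main transcripts encode the same 233 codons of BCL-XL from different first exons, called first exon a and first exon b here, and together held 98.0% of the gene's TPM in library 1 and 95.1% in library 2. The transcript with first exon a held 89.4% and 80.6%, and that with first exon b 8.58% and 14.6%. By counts they held 89.7% and 81.9%, and 9.20% and 15.9%. The level of the transcript with first exon b was 2.80 TPM in library 1 (deposited interval 1.45 to 3.90) and 7.53 TPM in library 2 (5.65 to 9.58). These intervals, whose confidence level is not stated, did not meet, but each covers 1 library only. The transcript with first exon a was also higher in library 2, at 29.2 and 41.6 TPM, so both first exons took part in the difference of the gene. Transcripts read past the end of the large coding exon, with 209 codons, held 0.31% and 0.52%. The death-promoting short form, BCL-XS, was not analysed here.

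**Figure D3:**
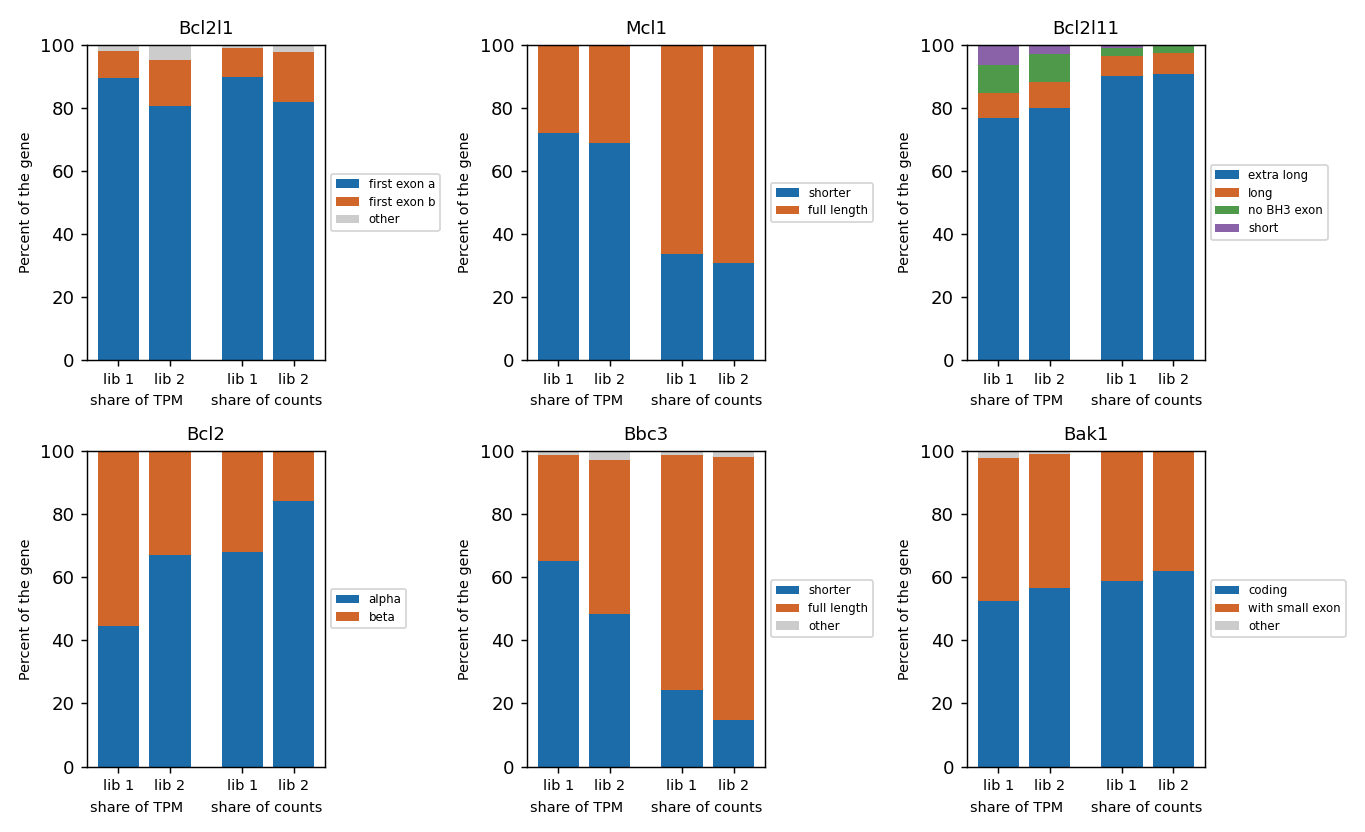
Percent of the gene held by each annotated transcript of 6 genes in each library, by TPM (left pair of bars) and by expected counts (right pair); names follow the text, and minor transcripts are pooled as other. The shorter transcripts of Mcl1 and Bbc3 have the larger share of TPM in library 1 and the smaller share of counts, and Bcl2 beta is smaller in library 2 by either measure.

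Of the 7 genes with several transcripts, Bcl2 and Bbc3 changed the share of their leading transcript by more than 10 points between the libraries, beside 28.4% of the 8856 detected genes examined in this way. Bcl2 has 2 forms. In the alpha form (236 codons), codon 192 is joined across an intron of 168906 bases to the exon that encodes the membrane anchor. In the beta form (199 codons), the reading frame runs on into that intron, of which 1966 bases belong to the transcript. The lines below, read on the minus strand of GRCm38 at chr1:106543378-106712334 and chr1:106712284-106712334, show the 30 shared bases before the junction and, in capitals, the 21 that follow it.
Bcl2 alpha: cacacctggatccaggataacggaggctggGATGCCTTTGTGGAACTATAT
Bcl2 beta: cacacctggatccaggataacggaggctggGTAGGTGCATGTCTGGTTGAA

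The alpha form was at 6.41 TPM in library 1 and 6.11 in library 2, hence nearly unchanged in level. The beta form was at 7.98 TPM (deposited interval 7.17 to 8.66) and 3.02 TPM (2.59 to 3.47), on 1010 and 421 expected counts. The difference of Bcl2 between the libraries thus lay in the beta form, whose share of TPM was 55.5% in library 1 and 33.1% in library 2. By counts the beta form held 31.9% and 15.7%, so that the alpha form led in library 1 by counts and not by TPM. A shift of 22.4 points in the leading transcript was exceeded in 7.19% of the genes examined, whose median was 5.04 points. The beta transcript is a single exon that continues into the intron, and reads of it and of unspliced Bcl2 RNA cannot be told apart here. With this mix of forms, the mean effective length of Bcl2 went from 4565 to 5554 bases, and its TPM ratio, 0.634, was further from 1 than its count ratio of 0.835.

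Bbc3 also shifted between its forms, and here both were lower in library 2. Its full-length transcript encodes all 193 codons, and a shorter entry of 485 bases holds 128 codons. The shorter entry held 65.0% of TPM in library 1 and 48.5% in library 2 (26.0 and 9.41 TPM), but 24.4% and 14.7% of counts. The full-length transcript stood at 13.4 and 9.46 TPM. The TPM ratio of the whole gene was 0.486, against a count ratio of 0.687, so the size of its difference depended on the unit while its direction did not.

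Bak1 was divided almost evenly between a coding transcript and 1 annotated as a target of nonsense-mediated decay. The latter holds an extra exon of 20 bases at chr17:27021663-27021682 of GRCm38, minus strand, which shifts the reading frame to a TGA stop after 151 codons in place of the full 209. The sequences are given since this small exon sets the frames of the 2 transcripts apart. Both lines cover chr17:27021318-27022468 on the minus strand, spliced, and capitals mark the small exon.
Bak1 with the small exon: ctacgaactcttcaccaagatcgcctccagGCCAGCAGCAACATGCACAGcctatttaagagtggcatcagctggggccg
Bak1 without it: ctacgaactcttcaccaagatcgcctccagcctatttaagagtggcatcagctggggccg
The transcript with the small exon held 45.2% of TPM in library 1 and 42.4% in library 2 (23.3 and 17.7 TPM), and 41.0% and 37.8% of counts. The coding transcript held 52.5% and 56.6% of TPM (27.1 and 23.6 TPM). The transcript that encodes the full protein thus led Bak1 by either measure in both libraries, with a large part of the gene's RNA in the other.

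**Figure D4:**
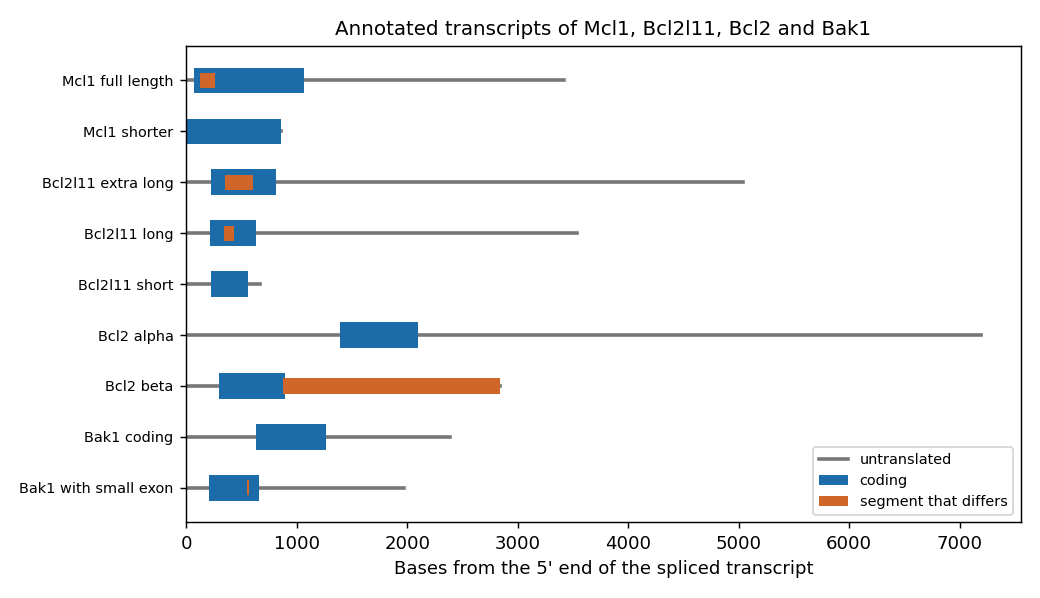
Spliced annotated transcripts drawn to scale from the start, in bases, with untranslated parts as grey lines, coding parts in blue and segments that differ between forms in orange (for Bcl2l11, relative to the short form). The 138-base segment of full-length Mcl1, the 258-base segment of extra-long Bcl2l11 and the 20-base exon of Bak1 lie within the coding part, while in Bcl2 beta the 1966 bases of intron lie mostly beyond it.

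Bid was carried mainly by 1 transcript, which encodes 195 codons and held 94.6% of TPM in library 1 and 87.0% in library 2, and 96.6% and 92.3% of counts. Bax, Pmaip1 and Bcl2a1b have 1 listed transcript each. Forms of Bax other than this transcript were not analysed here.

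Bcl2a1b belongs to a cluster of near-identical genes on chromosome 9, and its reads can be shared among them. The coding sequences of Bcl2a1b, Bcl2a1a and Bcl2a1d are 516 bases each. Bcl2a1b differs from Bcl2a1a at 11 bases (97.9% identical) and from Bcl2a1d at 6 (98.8% identical), and stretches of up to 217 bases are the same in Bcl2a1b and either copy. The first 60 coding bases are shown because they hold 6 of the 12 positions that differ among the copies, in capitals. They lie on GRCm38 at chr9:89199360-89199419 (plus strand), chr9:88957051-88957110 (plus strand) and chr9:88731660-88731719 (minus strand).
Bcl2a1b: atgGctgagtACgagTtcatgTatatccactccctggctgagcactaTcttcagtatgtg
Bcl2a1a: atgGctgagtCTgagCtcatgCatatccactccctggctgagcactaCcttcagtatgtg
Bcl2a1d: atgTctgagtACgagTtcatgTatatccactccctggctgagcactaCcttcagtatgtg
Bcl2a1b had 336 and 383 expected counts, a ratio of 1.13 (0.969 to 1.31, adjusted p = 0.188, exact binomial test), so no difference was detected at this depth. Bcl2a1a stood at 6.93 and 7.58 TPM and was not called. Bcl2a1d, at 7.96 and 12.5 TPM, was higher in library 2 by 0.79 on the log2 scale (adjusted p = 8.84e-12, exact binomial test). The 3 genes together reached 26.4 and 31.8 TPM, of which Bcl2a1b held 43.7% and 36.8%. The deposited TPM intervals of Bcl2a1d, 6.93 to 8.94 and 11.3 to 13.7, did not meet, but each covers 1 library only. The posterior SD of its counts was 3.43 on 249 and 4.98 on 439, and that of Bcl2a1b 0.92 and 4.46. Whether the change of Bcl2a1d differed from that of the other copies was not tested.

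The rest of the family comprised 16 genes, of which 11 were detected in both libraries. Of the 13 that could be tested, 6 were higher in library 2, 3 were lower and 4 were not called. Beside them, 24.1% of all genes tested were called higher and 26.6% lower, shares not matched for counts. The survival gene Bcl2l2, which encodes BCL-W, stood at 10.8 and 9.98 TPM, near Bcl2, and was called higher by 0.33 on the log2 scale of counts. Bcl2l10, Bcl2a1c and the neuronal BH3-only gene Hrk had no counts in either library. For Hrk, 3 counts, the limit that a count of 0 allows, correspond to 0.0222 and 0.0202 TPM.

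Among relatives with other combinations of BCL2 homology domains, Bok, a pore former of its own, reached 35.6 and 30.4 TPM and was lower by 0.20 (log2). Bcl2l12 stood at 34.7 and 29.96 TPM and was not called. Bcl2l13, a mitochondrial receptor for mitophagy, stood at 7.08 and 7.21 TPM and was called higher. Bcl2l14 (0.63 and 0.81 TPM) and Bcl2l15 (0.10 and 0.07 TPM) stayed below 1 TPM.

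Of the other BH3-only genes, Bmf stood at 29.7 and 23.1 TPM and Bad at 20.5 and 16.5 TPM, and both were lower in library 2, by 0.26 and 0.20 on the log2 scale. Bik (3.24 and 4.12 TPM) and Bnip3 (3.53 and 4.36 TPM) were higher, as was Bnip3l, at 22.3 and 56.96 TPM. Bnip3l, which clears mitochondria from maturing red cells and is also called NIX, differed by 0.80 on the log2 scale (adjusted p = 3.75e-64, exact binomial test), close to the 0.76 of Bcl2l1. Its main coding transcript stood at 9.02 and 11.6 TPM, with 90.6% and 72.7% of counts, and short noncoding entries held most of the gene's TPM. As for Bcl2l1, the red cell markers and the red pulp macrophage markers moved the same way, and their part was not tested.

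Genes that act above and below the family were taken as a list of 39, of which 36 were detected in both libraries. In it 11 were higher in library 2, 14 lower and 14 not called, with none beyond 2-fold and a median log2 ratio of -0.015. Of all genes tested, 24.1% were called higher, 26.6% lower and 5.73% beyond 2-fold. These shares, not matched for counts, also stand beside the shorter pathway lists that follow. Of 11 transcription regulators, 8 were lower and 2 higher. Nfkb1, a subunit of NF-kB, which induces Bcl2a1 genes and Bcl2l1, reached 200 and 165 TPM and was called at -0.053 (log2). Trp53, the activator of Bbc3, Pmaip1 and Bax, stood at 130 and 94.9 TPM and was lower by 0.29 (adjusted p = 8.13e-43, exact binomial test). These 3 genes were lower too, and the part of Trp53 in their differences was not tested. The p53 relative Trp73 was close to absent (0.23 and 0.32 TPM).

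All 4 genes of MCL1 protein turnover were called higher in library 2, beside 24.1% of all genes, a share not matched for counts. They include the ubiquitin ligase genes Huwe1 (43.2 and 48.4 TPM), Btrc (4.09 and 4.79 TPM) and Fbxw7 (2.50 and 3.06 TPM). Their log2 ratios were 0.29 for Huwe1, 0.33 for Btrc and 0.31 for Fbxw7. The fourth, Usp9x, named here after its values were seen, encodes a deubiquitinase that stabilizes MCL1, opposite to the ligases. It differed by 0.36 on the log2 scale of counts, while its TPM was 4.52 and 4.31. These enzymes have many other substrates.

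Downstream, 4 of the 6 apoptosome and caspase genes were not called, 1 was higher and 1 lower. Casp6, an executioner caspase, stood at 22.7 and 17.1 TPM and was not called by counts. Casp9, the initiator caspase of the apoptosome, stood at 22.7 and 16.5 TPM and was lower by 0.16 (log2). Cycs, the cytochrome c gene, was listed at only 0.88 and 0.74 TPM, a value that is uncertain because processed copies of this gene share its sequence.

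Of 9 genes for mitochondrial release and inhibitors of apoptosis, 2 were higher, 2 lower and 5 not called. Vdac2, a channel that holds BAK at the outer membrane, reached 60.1 and 54.0 TPM and was not called. Htra2, a protease released with cytochrome c, stood at 56.8 and 47.8 TPM, and Aifm1 at 3.11 and 4.23 TPM. In the death receptor list of 9 genes, 2 were higher, 3 lower and 4 not called. Its most abundant gene was the TNF receptor Tnfrsf1a (57.4 and 46.2 TPM), and the caspase-8 inhibitor Cflar (25.5 and 30.2 TPM) was higher by 0.30 (adjusted p = 4.42e-18, exact binomial test). Tnfrsf10b, the TRAIL receptor, was lowest at 0.94 and 0.85 TPM.

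B cell markers gave no common direction. Calls in this and the following marker lists stand beside 24.1% of all genes tested called higher and 26.6% lower. Those shares were not matched for counts. The 8 markers, led by Cd79a (1130 and 863 TPM), split into 5 higher and 3 lower, with a median log2 ratio of 0.10. T cell markers, led by Lck (105 and 97.7 TPM), split into 5 higher, 1 lower and 2 not called, and neutrophil markers, led by Camp, into 4 higher, 3 lower and 1 not called. Of 6 proliferation genes, led by Pcna (109 and 73.5 TPM), 2 were lower and 4 not called, and of 6 megakaryocyte markers, led by Ppbp, 1 was higher, 3 lower and 2 not called. Of 8 acinar markers 6 were higher, 1 lower and 1 not called, with a median log2 ratio of 0.17, although their summed TPM was lower in library 2, as was Ctrb1 (36979 and 21059 TPM). Of 5 spleen identity markers, 4 were lower and 1 not called, with a median log2 ratio of -0.33. They summed to 211 TPM in library 1 and 162 in library 2. That was the direction of the 6 genes called lower, but not of Bcl2l1 and Bcl2l11. The part of these lists in the differences of Mcl1, Bbc3 and Pmaip1 was not tested.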

How the data were processed

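Whole spleen RNA of 2 libraries, replicates 1 and 2 of 1 group, was used as quantified by the authors. The deposited tables use mm10 with GENCODE M4, per the deposited notes, and their values came from transcriptome alignments. For the aligner, quantifier, versions and strand setting, nothing is given in the sources used here. Expected counts, as deposited, are estimated read numbers per gene or transcript, divided where reads match several, and were rounded for the test. The deposited TPM and FPKM values are scaled for length and depth over all entries, spike-ins included. The deposited percent of each transcript is its share of the gene's TPM. Spike-ins and other entries without a gene held 0.670% and 1.24% of counts and entered neither library sizes nor tests.

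Symbols, positions on GRCm38 (mm10) and coding sequences came from GENCODE M21 by unversioned identifier, which named 42462 of 43346 genes (98.0%). Of 36 transcripts of the 10 genes, 31 had the same length there. Library sizes were scaled by TMM (edgeR 4.0.16, R 4.3.3), with factors of 1.01 and 0.990. Log2 ratios used a prior count of 2. A binomial test of the libraries, exact and two-sided, was run with scipy 1.17.1. It was adjusted by Benjamini-Hochberg over genes with 10 or more counts, at a threshold of 0.05. The test was checked on counts simulated with counting error alone, which cannot show how it behaves under other spread between libraries. Counting intervals are exact 95% intervals and, like the floor of 3 counts, cover counting error only. For the deposited TPM intervals, the confidence level is not stated in the sources used here. A gene was called detected at 1 TPM or more in both libraries. Alternatives were DESeq2 1.42.0 size factors, total counts, a prior of 0.5, no filter or 50 counts, FPKM, posterior mean TPM, shares of counts, each library alone, and all Bcl2a1 genes summed.

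The 10 genes and all lists were chosen with earlier results of these data known. Named were the 10, their relatives, in each pathway list the 2 genes of highest and the 1 of lowest mean TPM and any called gene beyond 2-fold, and the top gene of each marker list. Junction and contig lists on mm9 were not used here.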

Additional observations from a re-analysis of the deposited data

How the results depend on the processing

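No gene among the 10 changed direction or its side of the threshold under DESeq2 size factors, total counts, a prior of 0.5, no filter or a minimum of 50 counts. Both call counts were unchanged, at 2 higher and 6 lower. Transcript shares moved most with the unit. By share of expected counts, in place of TPM, full-length Mcl1 held 67.8% and shorter Mcl1 held 32.2% on average (29.5% and 70.5% by TPM). Bim extra long held 90.4% by counts, Bim long 6.38%, Bim short 0.711% and Bcl2l11 without the BH3 exon 2.53%, against 78.4%, 8.02%, 4.70% and 8.92% by TPM. On average over the libraries, Bcl2 alpha held 76.2% by counts against 55.7% by TPM, and full-length Bbc3 78.8% against 41.2%. From posterior mean TPM, Bcl2l11 without the BH3 exon held 9.64%. With TPM rescaled without the 4 haemoglobin genes, an alternative chosen after seeing the data, the summed levels were 356 TPM for survival, 178 TPM for effector and 97.5 TPM for BH3-only genes, by construction of the scale. FPKM gave 11.5 for Bcl2a1b. With each library alone, every level is the value given for it above. Leaving out a library gives no test, since 1 remains. No paired analysis was possible because the study has 1 group. Counts of near-identical Bcl2a1 copies and transcripts with few reads, such as Bim short, limit what depth resolves.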

Other observations

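Short annotated transcripts also took large TPM shares in relatives of the 10 genes. In Bcl2l2, the retained-intron transcript of 399 bases held 52.1% of TPM in library 1, at 5.64 TPM, and stood at 4.46 TPM in library 2. Its main coding transcript, of 3509 bases, stood at 3.73 and 4.85 TPM. In Bmf, the noncoding transcript of 374 bases stood at 10.4 and 10.2 TPM, beside 14.0 and 10.6 TPM for the main coding transcript. In Bok, the main coding transcript stood at 28.5 and 21.7 TPM and a shorter one of 547 bases at 7.12 and 8.71 TPM. These transcripts were picked after their values were seen.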
